A study of Mus musculus with 12 samples.

Results

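Whether the loss of JNK alters how liver gene expression responds to hepatocyte isolation was asked over all 12 of the 12 arrays of the study, 6 of whole liver and 6 of isolated primary hepatocytes. The arrays were chosen by their sample titles, which put 3 in each of 4 groups: WT liver, JNKΔhepa liver, WT hepatocytes and JNKΔhepa hepatocytes. The quantity followed is the interaction, the genotype effect (JNKΔhepa minus WT) in hepatocytes minus that in liver, on the log2 scale. It equals the change from liver to hepatocytes in JNKΔhepa mice minus the same change in WT mice. A value above 0 means that JNKΔhepa stood higher against WT in hepatocytes than in liver.

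WT mice were Jnk1f/f Jnk2+/+, that is, floxed but intact at Jnk1 and normal at Jnk2. JNKΔhepa mice were Jnk1f/f with the Albf-Cre transgene, a recombinase under the albumin promoter with an alpha-fetoprotein enhancer that the labels call hepatocyte-specific, and were also Jnk2-/- in every cell of the body. The floxed Jnk1 allele was thus shared by both genotypes, whereas the labels give the transgene and the Jnk2-/- allele to JNKΔhepa only. The loss of JNK, the presence of Cre and any sequence inherited along with the transgene or the Jnk2-/- allele therefore cannot be told apart. All mice were untreated C57BL/6 males aged 7 to 8 weeks on standard chow, with the WT animals described as matching littermates. The animal numbers in the labels show that 6 mice, 3 of each genotype, gave a liver array and a hepatocyte array each. How the hepatocytes were isolated, and whether they were cultured, is not stated in the labels.

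The c-Jun N-terminal kinases are stress-activated MAP kinases, encoded in liver mainly by Jnk1 (Mapk8) and Jnk2 (Mapk9), that phosphorylate Jun and other members of the AP-1 transcription factor family. Taking hepatocytes out of the liver by enzymatic digestion is itself a stress that is known to induce immediate early genes and to activate JNK. It also removes most endothelial, Kupffer and stellate cells, so a difference between liver and hepatocytes holds both a response of hepatocytes and a change of cell composition.

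Each tissue was close to uniform among its own arrays, with correlations across probe sets of 0.9865 to 0.9928 within a group. Medians of the liver arrays ran from 4.09 to 4.12 and those of the hepatocyte arrays from 3.22 to 3.28, so levels are not on a common scale between the tissues. Over the 18820 genes tested, the median change from liver to hepatocytes was −0.58 (log2) in WT and −0.60 in JNKΔhepa. Responses to isolation called relative below have the median of both, −0.58, taken away, a constant that cancels in the interaction. Markers of hepatocyte identity stood at a list mean of 10.56 to 10.67 in liver and 10.21 to 10.41 in hepatocytes, with 0 of 31 below the array median throughout. The number of arrays, 3 in a group, limits the precision: the median 95% interval of the interaction reached 0.342 (log2, a 1.27-fold difference) to either side.

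With that precision, 2 genes passed the test of the interaction (limma, Benjamini-Hochberg adjusted p under 0.05), 0.0106% of the 18820 tested. Both were lower in the interaction: the interferon-induced gene Ifi44l, whose rise in JNKΔhepa was smaller in hepatocytes than in liver, and Plet1, a surface protein gene that rose in JNKΔhepa liver and fell in JNKΔhepa hepatocytes. None was higher. Before adjustment, 1359 genes (7.22%) had a p under 0.05, 499 higher (2.65%) and 860 lower (4.57%). The balance of those directions depended on the scaling, with 624 higher and 669 lower after all 12 arrays were quantile normalised together, and 733 higher and 578 lower after each array was centred on its median. The median interaction over all genes was −0.02 with quartiles of −0.15 and 0.10, and −0.01 and 0.02 under those scalings.

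The responses of single mice show the same spread without a model. In 2399 genes (12.7%) the 3 JNKΔhepa responses to isolation lay all above or all below the 3 WT responses, 917 above (4.87%) and 1482 below (7.87%). In 117 genes (0.622%) the genotypes did not overlap in either tissue and lay in opposite order, 49 higher in JNKΔhepa hepatocytes and lower in JNKΔhepa liver and 68 the reverse. In 698 genes (3.71%) they did not overlap in either tissue and lay in the same order.

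**Figure D1:**
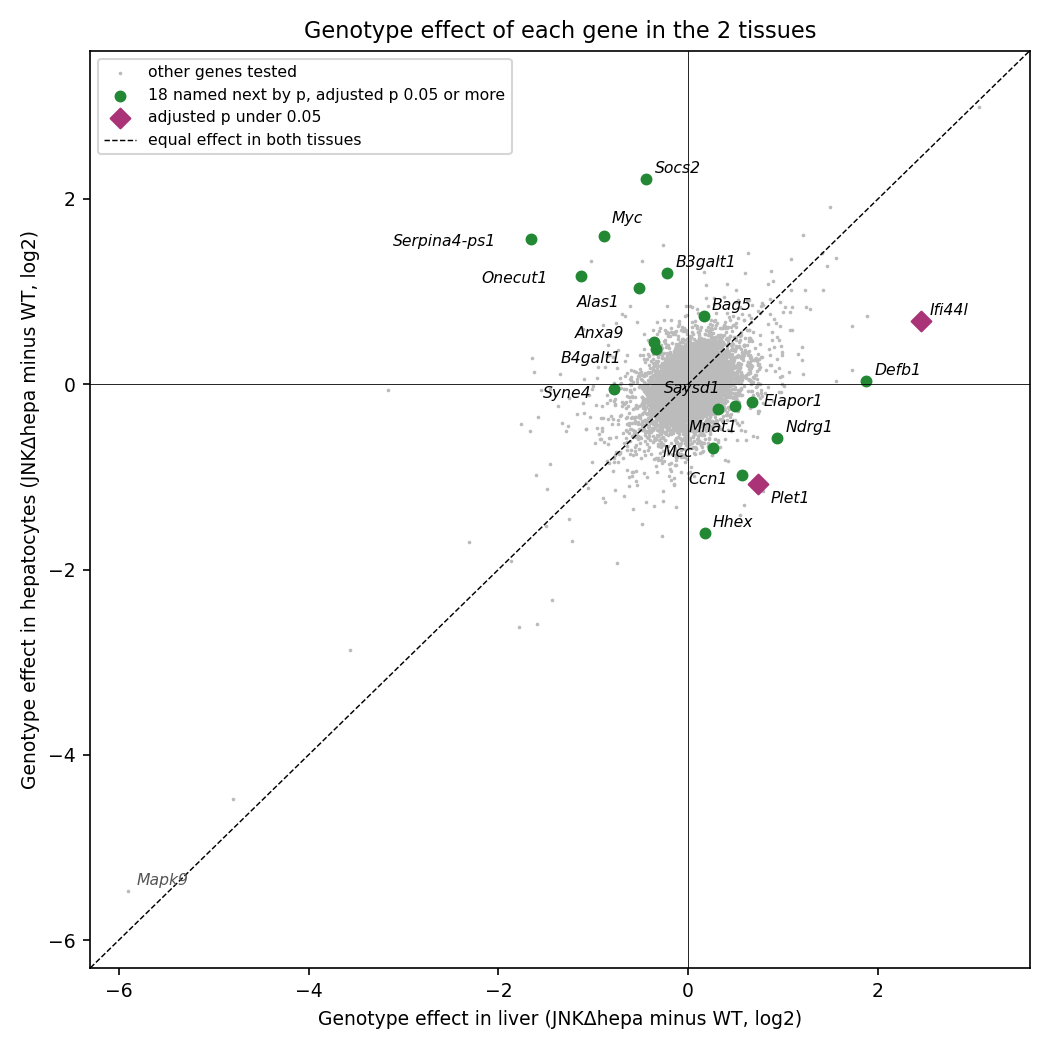
Genotype effect in liver (horizontal, log2) against that in hepatocytes (vertical, log2) for each of the 18820 genes tested, 3 arrays a group, with the dashed line marking an equal effect. Ifi44l and Plet1, the 2 genes past the threshold, lie below the line, and Mapk9 lies close to it at −5.90 in liver and −5.47 in hepatocytes.

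The deleted genes themselves had no interaction past the threshold. Mapk9 read 8.64, 8.69 and 8.59 in the WT livers, 2.85, 2.33 and 3.02 in the JNKΔhepa livers, 8.10, 7.74 and 8.05 in the WT hepatocytes and 2.62, 2.57 and 2.29 in the JNKΔhepa hepatocytes. Its genotype groups were far apart in both tissues, and its interaction of 0.43 (SE 0.224, 95% interval −0.05 to 0.92, limma adjusted p = 0.73) compares JNKΔhepa readings that were all below the array median, so that its size is not exact. Mapk8 read 6.40, 6.39 and 6.37 in the WT livers, 5.95, 5.93 and 6.07 in the JNKΔhepa livers, 5.62, 5.51 and 5.66 in the WT hepatocytes and 4.95, 5.00 and 5.01 in the JNKΔhepa hepatocytes. The JNKΔhepa arrays were lower in both tissues, by 0.40 in liver and 0.61 in hepatocytes (SE 0.0762 for each), and the interaction was −0.20 (95% interval −0.44 to 0.03, limma adjusted p = 0.736).

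Ifi44l encodes a protein of the interferon-induced 44 family. On the log2 scale it read 2.63, 2.40 and 2.47 in the WT livers, 5.18, 4.79 and 4.90 in the JNKΔhepa livers, 2.57, 2.32 and 2.34 in the WT hepatocytes and 2.99, 3.30 and 2.99 in the JNKΔhepa hepatocytes. JNKΔhepa liver stood far above WT liver, and in hepatocytes the genotypes did not overlap but lay close. Ifi44l rose in JNKΔhepa liver by at least 5.48-fold (log2 2.45, SE 0.124, limma adjusted p = 5.73e-07) and in JNKΔhepa hepatocytes by 0.68 on the log2 scale (adjusted p = 0.0227). The interaction was −1.77 (SE 0.176, 95% interval −2.15 to −1.39, limma adjusted p = 0.00365). Relative to all genes, the responses to isolation were 0.52, 0.50 and 0.45 for the WT mice and −1.61, −0.91 and −1.33 for the JNKΔhepa mice. All 6 WT readings and 2 of the 3 JNKΔhepa hepatocyte readings were below the array median, so the liver change is a lower bound and the size of the interaction is not exact. The call held without each array in turn, with an interaction of −1.87 to −1.66 and an adjusted p of 0.00349 to 0.0237.

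Plet1, placenta-expressed transcript 1, encodes a surface protein of epithelial cells. It read 5.90, 6.10 and 6.03 in the WT livers, 6.90, 6.81 and 6.53 in the JNKΔhepa livers, 3.42, 3.10 and 2.83 in the WT hepatocytes and 2.29, 1.93 and 1.88 in the JNKΔhepa hepatocytes. JNKΔhepa was above WT in liver and below it in hepatocytes with no overlap in either tissue. Plet1 rose in JNKΔhepa liver by 0.73 (log2, SE 0.153, limma adjusted p = 0.0452) and fell by 1.08 in JNKΔhepa hepatocytes (adjusted p = 0.00464). The interaction was −1.82 (SE 0.217, 95% interval −2.29 to −1.35, limma adjusted p = 0.0147). Taken relative to all genes, its responses were −1.90, −2.41 and −2.61 for the WT mice and −4.02, −4.29 and −4.06 for the JNKΔhepa mice. In hepatocytes 2 WT and 3 JNKΔhepa readings were below the array median, so the size there is not exact. The call was lost without WT liver replicate 1 (adjusted p = 0.0564), JNKΔhepa liver replicate 1 (0.0743) or 2 (0.0805), or JNKΔhepa hepatocyte replicate 2 (0.0833) or 3 (0.0781), with the interaction between −1.96 and −1.67 throughout.

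The sequence before the start of each of these genes is shown because they are the genes that passed, and because AP-1 binding motifs are the usual mark of a direct JNK and Jun target. The sequences are the 250 bases before the RefSeq gene start (GRCm38.p6), written 5′ to 3′, for Ifi44l at chr3:151762892-151763141 on the minus strand and for Plet1 at chr9:50494275-50494524 on the plus strand. Capitals mark a match to TGANTCA, a loose form of the AP-1 motif in which the central base may be any letter, called the AP-1 motif below.
Ifi44l: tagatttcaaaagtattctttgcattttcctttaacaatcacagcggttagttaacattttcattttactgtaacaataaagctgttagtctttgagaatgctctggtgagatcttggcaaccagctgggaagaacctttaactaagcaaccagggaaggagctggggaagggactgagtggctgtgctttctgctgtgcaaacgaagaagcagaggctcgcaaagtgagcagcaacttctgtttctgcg
Plet1: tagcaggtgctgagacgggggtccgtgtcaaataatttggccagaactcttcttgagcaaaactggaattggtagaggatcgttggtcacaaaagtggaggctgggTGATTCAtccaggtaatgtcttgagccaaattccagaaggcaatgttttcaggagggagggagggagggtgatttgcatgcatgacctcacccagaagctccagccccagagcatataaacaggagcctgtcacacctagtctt
The window searched, on both strands, was these bases and the 50 after the start. The Plet1 window held the match TGATTCA at bases 107 to 113, and the Ifi44l window held none. Of 27025 RefSeq promoters of the same length, 7.93% held the AP-1 motif and 7.24% the E-box CACGTG, the motif of Myc and clock factors, which neither of these windows held. Of the 20 genes with the smallest p named here, 14 had a promoter entry, of which Mnat1 and Plet1 held the AP-1 motif and Onecut1 and Saysd1 the E-box. A match describes the letters of the window and is no evidence of binding.

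The next genes by p, 10 higher and 8 lower, did not pass the threshold (limma adjusted p of 0.0729 to 0.35), so their values are a description of where the interaction was largest against its error. They were ranked by that p, and the lack of overlap between the genotypes' responses in all 18 comes with the ranking. Among the 20 genes, 9 lay in opposite, non-overlapping order in the tissues. Of these, Myc, Anxa9, Serpina4-ps1, B4galt1 and Onecut1 were higher in JNKΔhepa hepatocytes and lower in JNKΔhepa liver, and Plet1, Ccn1, Mcc and Mnat1 were the reverse.

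Myc, the growth-promoting transcription factor, read 6.03, 6.96 and 5.76 in the WT livers, 5.37, 5.25 and 5.45 in the JNKΔhepa livers, 5.80, 5.40 and 5.93 in the WT hepatocytes and 6.89, 7.46 and 7.59 in the JNKΔhepa hepatocytes. The genotypes did not overlap in either tissue, with JNKΔhepa the higher in hepatocytes and the lower in liver. Myc rose in JNKΔhepa hepatocytes by 1.60 (log2, SE 0.262, limma adjusted p = 0.0125), while the difference in liver was −0.89 (adjusted p = 0.151). The interaction of 2.49 (SE 0.371, 95% interval 1.69 to 3.30) had an adjusted p of 0.073, which became 0.0424 with array weights, 0.0181 without WT liver replicate 3 and 0.0234 without WT liver replicate 2.

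B3galt1, a galactosyltransferase of glycan synthesis, read 7.98, 7.86 and 8.02 in the WT livers, 7.76, 7.53 and 7.91 in the JNKΔhepa livers, 7.12, 7.72 and 7.14 in the WT hepatocytes and 8.51, 8.53 and 8.54 in the JNKΔhepa hepatocytes. The JNKΔhepa hepatocytes were tightly grouped above all WT hepatocytes, and liver arrays overlapped between the genotypes. B3galt1 rose by 1.20 in hepatocytes (log2, limma adjusted p = 0.0014) against −0.22 in liver (adjusted p = 0.603). Its interaction of 1.42 (SE 0.205, 95% interval 0.98 to 1.86) had an adjusted p of 0.0729, and passed with an intensity trend (0.0175), with array weights (0.046) and without WT hepatocyte replicate 2 (0.0029), the array that read highest in its group.

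Alas1, the rate-limiting enzyme of heme synthesis, read 10.21, 10.78 and 11.24 in the WT livers, 10.28, 10.26 and 10.13 in the JNKΔhepa livers, 9.09, 9.33 and 9.15 in the WT hepatocytes and 10.08, 10.25 and 10.34 in the JNKΔhepa hepatocytes. Relative to all genes, the responses of Alas1 to isolation were −0.53, −0.86 and −1.51 for the WT mice and 0.38, 0.58 and 0.80 for the JNKΔhepa mice. The interaction was 1.55 (95% interval 0.96 to 2.14, limma adjusted p = 0.182). Socs2, a feedback inhibitor of growth hormone signalling, read 8.44, 9.25 and 8.53 in the WT livers, 7.91, 7.47 and 9.51 in the JNKΔhepa livers, 7.14, 6.91 and 6.77 in the WT hepatocytes and 9.53, 8.95 and 8.97 in the JNKΔhepa hepatocytes. JNKΔhepa hepatocytes lay above all WT hepatocytes, and JNKΔhepa liver replicate 3 lay far above the other 2 of its group. The interaction of Socs2 was 2.66 (SE 0.565, limma adjusted p = 0.35), and the second probe set of the gene, with a mean level of 4.70, gave 2.31 and passed when all probe sets were tested.

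The remaining genes on the higher side were smaller or more variable. Onecut1, a hepatocyte transcription factor also called HNF6, had an interaction of 2.29, and Serpina4-ps1, a serpin pseudogene whose probes may read its close relatives, had 3.22, the largest of the 18. In both the WT liver arrays spread widely, with Serpina4-ps1 at 10.28, 11.42 and 9.53 and Onecut1 at 7.61, 9.05 and 7.51. Bag5, a co-chaperone gene, had a smaller interaction of 0.57 (SE 0.110) with closely grouped arrays, and it rose in JNKΔhepa hepatocytes by 0.73 (limma adjusted p = 0.000597). Syne4, a nuclear envelope protein gene, Anxa9, an annexin gene, and B4galt1, a galactosyltransferase gene, had interactions of 0.73, 0.82 and 0.72. Anxa9 was below the array median in 2 WT liver arrays and in all 3 arrays of each other group. Syne4 was below it in 3 JNKΔhepa liver, 2 WT hepatocyte and 2 JNKΔhepa hepatocyte arrays. The sizes for Anxa9 and Syne4 are thus not exact.

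On the lower side, Defb1, a beta-defensin gene, read 4.11, 3.92 and 4.79 in the WT livers, 6.09, 6.23 and 6.12 in the JNKΔhepa livers, 4.95, 4.50 and 4.76 in the WT hepatocytes and 4.38, 5.03 and 4.91 in the JNKΔhepa hepatocytes. It rose in JNKΔhepa liver by 1.88 (log2, limma adjusted p = 0.00113), where every JNKΔhepa array lay above every WT array, and differed by 0.03 in hepatocytes (adjusted p = 0.974). The interaction was −1.84 (SE 0.299, 95% interval −2.49 to −1.19, limma adjusted p = 0.129). Ccn1 (Cyr61), a matrix-associated protein that is a target of YAP and of serum response factor, read 5.67, 5.42 and 5.50 in the WT livers, 5.98, 6.47 and 5.84 in the JNKΔhepa livers, 6.30, 5.93 and 6.23 in the WT hepatocytes and 4.84, 5.18 and 5.48 in the JNKΔhepa hepatocytes. JNKΔhepa was above WT in liver and below it in hepatocytes, and the fall in hepatocytes passed (log2 −0.98, limma adjusted p = 0.0233). The interaction of Ccn1 was −1.55 (SE 0.254, adjusted p = 0.129).

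Hhex, a homeobox transcription factor of liver development, read 8.36, 9.15 and 7.91 in the WT livers, 8.61, 8.47 and 8.86 in the JNKΔhepa livers, 8.36, 8.09 and 8.32 in the WT hepatocytes and 6.66, 6.42 and 6.86 in the JNKΔhepa hepatocytes. It fell in JNKΔhepa hepatocytes by 1.61 (log2, limma adjusted p = 0.00655) while the liver arrays overlapped, and its interaction was −1.78 (SE 0.338, adjusted p = 0.272). Ndrg1, a stress-responsive gene, had an interaction of −1.52, and Mcc, Elapor1, Saysd1 and Mnat1, the last a subunit of the CDK-activating kinase, had −0.95, −0.86, −0.73 and −0.58. Elapor1 and Saysd1 rose in JNKΔhepa liver (limma adjusted p = 0.0246 and 0.027), and Mcc fell in JNKΔhepa hepatocytes (adjusted p = 0.0151). Elapor1 was below the array median in all 3 hepatocyte arrays of each genotype, and Saysd1 in all 3 WT livers, so their interaction sizes are not exact.

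**Figure D2:**
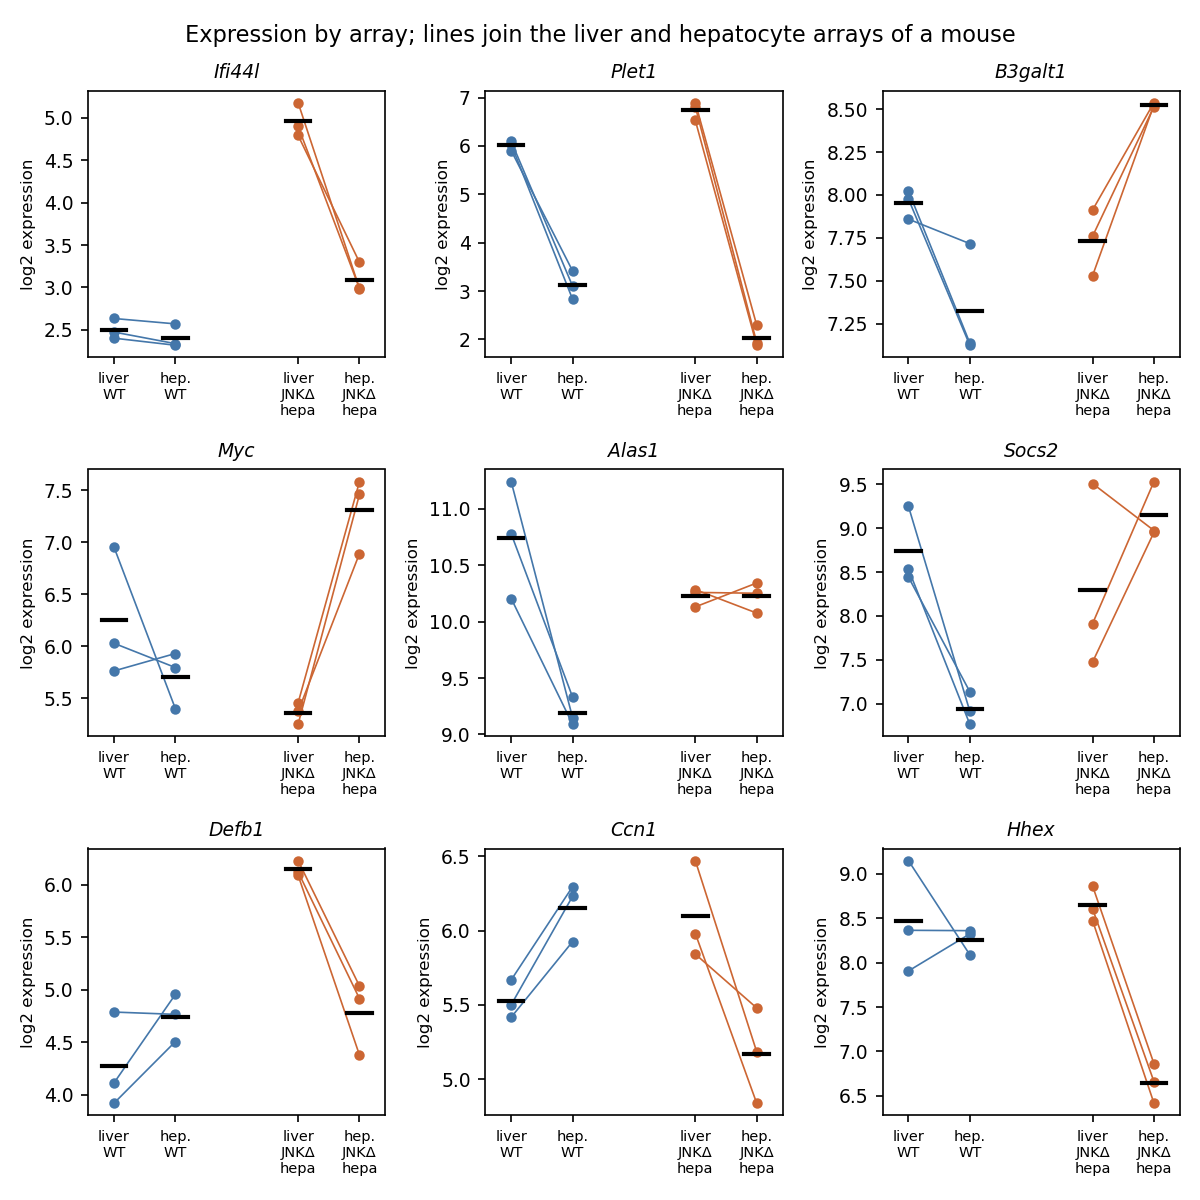
Expression (log2, vertical) of 9 genes by array, with WT in blue and JNKΔhepa in orange, lines joining the liver and hepatocyte arrays of a mouse and black bars giving group means of 3. Levels are not on a common scale between the tissues, so each line also holds the general shift of −0.58, and it is the difference between the blue and the orange slopes that gives the interaction: Ifi44l falls more steeply in JNKΔhepa than in WT, and B3galt1 climbs in JNKΔhepa and not in WT.

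The JNK cascade and the genes downstream of it were described by list. Of 21 measured genes of the JNK cascade (kinases, scaffolds and phosphatases), 0 passed and 0 had an unadjusted p under 0.05, and their median interaction was −0.03 beside −0.02 for all genes, turning to 0.01 after centring. Of 29 AP-1 and immediate early genes none passed, 3 were higher and 5 lower at an unadjusted p under 0.05, against 2.65% and 4.57% of all genes, and the median was −0.10. That median was −0.03 after joint quantile normalisation and ran from −0.25, without WT hepatocyte replicate 2, to −0.01, without WT hepatocyte replicate 3, and the count of 5 was 3 without WT liver replicate 3 or JNKΔhepa liver replicate 2. Jun, a substrate and target of JNK, read 6.38, 6.79 and 6.45 in the WT livers, 5.79, 5.75 and 5.86 in the JNKΔhepa livers, 8.74, 8.36 and 8.86 in the WT hepatocytes and 7.98, 7.66 and 7.81 in the JNKΔhepa hepatocytes. Jun was higher in hepatocytes than in liver in both genotypes and lower in JNKΔhepa than in WT in both tissues, with an interaction of −0.10 (SE 0.198, 95% interval −0.53 to 0.33, limma adjusted p = 0.959). The members past the unadjusted threshold were Myc, Fosl2 (0.79), which encodes an AP-1 subunit, and Btg2 (0.47) on the higher side and Ccn1, Dusp1 (−0.80), a MAP kinase phosphatase gene, Ccn2 (−0.86), Ier5 (−0.41) and Btg1 (−0.41) on the lower. Dusp1 read 8.71, 8.76 and 7.85 in the WT livers, 8.00, 8.55 and 8.17 in the JNKΔhepa livers, 9.93, 10.46 and 9.98 in the WT hepatocytes and 8.75, 9.28 and 9.34 in the JNKΔhepa hepatocytes, with an adjusted p of 0.664.

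In the Myc network, 21 of 29 genes (72.4%) had an interaction above 0, against 44.7% of all genes, with 4 higher and 1 lower at the unadjusted threshold (13.8% and 3.45%, against 2.65% and 4.57% of all genes) and a median of 0.11. The count of 4 was 2 without WT liver replicate 2, JNKΔhepa liver replicate 1, WT hepatocyte replicate 1 or 3 or JNKΔhepa hepatocyte replicate 2, and 7 without WT hepatocyte replicate 2. Of 28 interferon response genes, Ifi44l passed and no other had an unadjusted p under 0.05. The median interaction of that list was 0.04, and its median genotype effect was 0.28 in liver and 0.41 in hepatocytes. The median interaction turned negative without WT liver replicate 3 (−0.04), JNKΔhepa liver replicate 3 (−0.03) or JNKΔhepa hepatocyte replicate 2 (−0.04) or 3 (−0.01). Without JNKΔhepa hepatocyte replicate 1 it was 0.14, with 4 genes higher at the unadjusted threshold. The lower count of 1 became 3 without WT liver replicate 3 and 2 without WT liver replicate 1, WT hepatocyte replicate 2 or JNKΔhepa hepatocyte replicate 3. Rsad2, an antiviral gene of the same list, for example rose in JNKΔhepa in both tissues, by 0.89 in liver and 1.12 in hepatocytes (limma adjusted p = 0.00701 and 0.0014), with an interaction of 0.23 (95% interval −0.19 to 0.64).

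Genes that differ between male and female liver, which follow the pattern of pituitary growth hormone, gave list medians far from that of all genes. All 21 measured male-biased genes had an interaction above 0, none passed, and 10 had an unadjusted p under 0.05, 47.6% against 2.65% of all genes on that side. Their median interaction was 0.47, made of a median genotype effect of −0.36 in liver and 0.05 in hepatocytes. Averaged over the list, values were 9.88, 10.12 and 9.43 for the WT livers, 9.39, 8.76 and 9.43 for the JNKΔhepa livers, 9.27, 9.60 and 9.35 for the WT hepatocytes and 9.69, 9.46 and 9.43 for the JNKΔhepa hepatocytes. JNKΔhepa liver replicate 2 read lowest of all. Every WT liver lay above every JNKΔhepa liver, WT liver replicate 3 by less than the rounding of these values, and the hepatocyte genotypes overlapped. Relative to all genes the list responded by −0.02, 0.07 and 0.50 for the WT mice and by 0.89, 1.28 and 0.59 for the JNKΔhepa mice, without overlap. The count of 10 became 3 without WT liver replicate 2, 4 without WT liver replicate 1, JNKΔhepa liver replicate 2 or WT hepatocyte replicate 3, 5 without JNKΔhepa hepatocyte replicate 1, 6 without WT hepatocyte replicate 1 and 8 or more without any other array, while the median stayed between 0.33 and 0.64.

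Hsd3b2, a steroid dehydrogenase gene with close relatives that its probes may also read, had the smallest p of the male-biased list. It read 8.36, 8.59 and 8.42 in the WT livers, 9.21, 8.24 and 8.84 in the JNKΔhepa livers, 7.32, 7.47 and 7.43 in the WT hepatocytes and 8.53, 8.89 and 8.87 in the JNKΔhepa hepatocytes. Its hepatocyte genotype groups were apart and its liver groups overlapped, and it rose in JNKΔhepa hepatocytes by 1.35 (log2, limma adjusted p = 0.00434) with an interaction of 1.04 (adjusted p = 0.398). Hsd3b5, a male-specific gene of that family, had an interaction of 3.10 with a wide 95% interval of 0.78 to 5.41. C6, a complement gene, fell in JNKΔhepa liver by 1.76 (limma adjusted p = 0.0487) and had an interaction of 1.33. Female-biased genes lay on the other side, with 17 of 21 below 0 (81.0% against 55.3% of all genes) and a median of −0.31. At the unadjusted threshold 2 were lower (9.52% against 4.57%), though 12 of the 21 were below the array median in at least 1 array. The female-biased list mean changed relative to all genes by −0.08, 0.16 and −0.81 in WT mice. In JNKΔhepa mice it changed by −0.53, −0.82 and −0.62, so the genotypes overlapped through WT mouse 3. Without WT liver replicate 3 the count of 2 became 7 and the median −0.56, and without JNKΔhepa liver replicate 1 or 3 or JNKΔhepa hepatocyte replicate 1 the count was 4. Without WT liver replicate 2, 13 of the 21 were below 0, with a median of −0.22.

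The growth hormone and STAT5 axis gave 5 genes higher and 2 lower of 17 at the unadjusted threshold (29.4% and 11.8%, against 2.65% and 4.57% of all genes), with a median of 0.08. The 5 were Socs2, Onecut1, Egfr (0.80), Cish (1.46) and Socs3 (1.01), of which Socs2, Cish and Socs3 are feedback inhibitors of cytokine receptor signalling and are themselves STAT5 or STAT3 targets, and the 2 were Stat5b (−0.51) and Igfbp3 (−0.70). The growth hormone receptor Ghr and its target Igf1 had interactions of 0.08 and 0.14. None of the 17 passed. The count of 5 became no lower without any single array, and the count of 2 was 1 without WT liver replicate 2 and 4 without JNKΔhepa liver replicate 1.

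**Figure D3:**
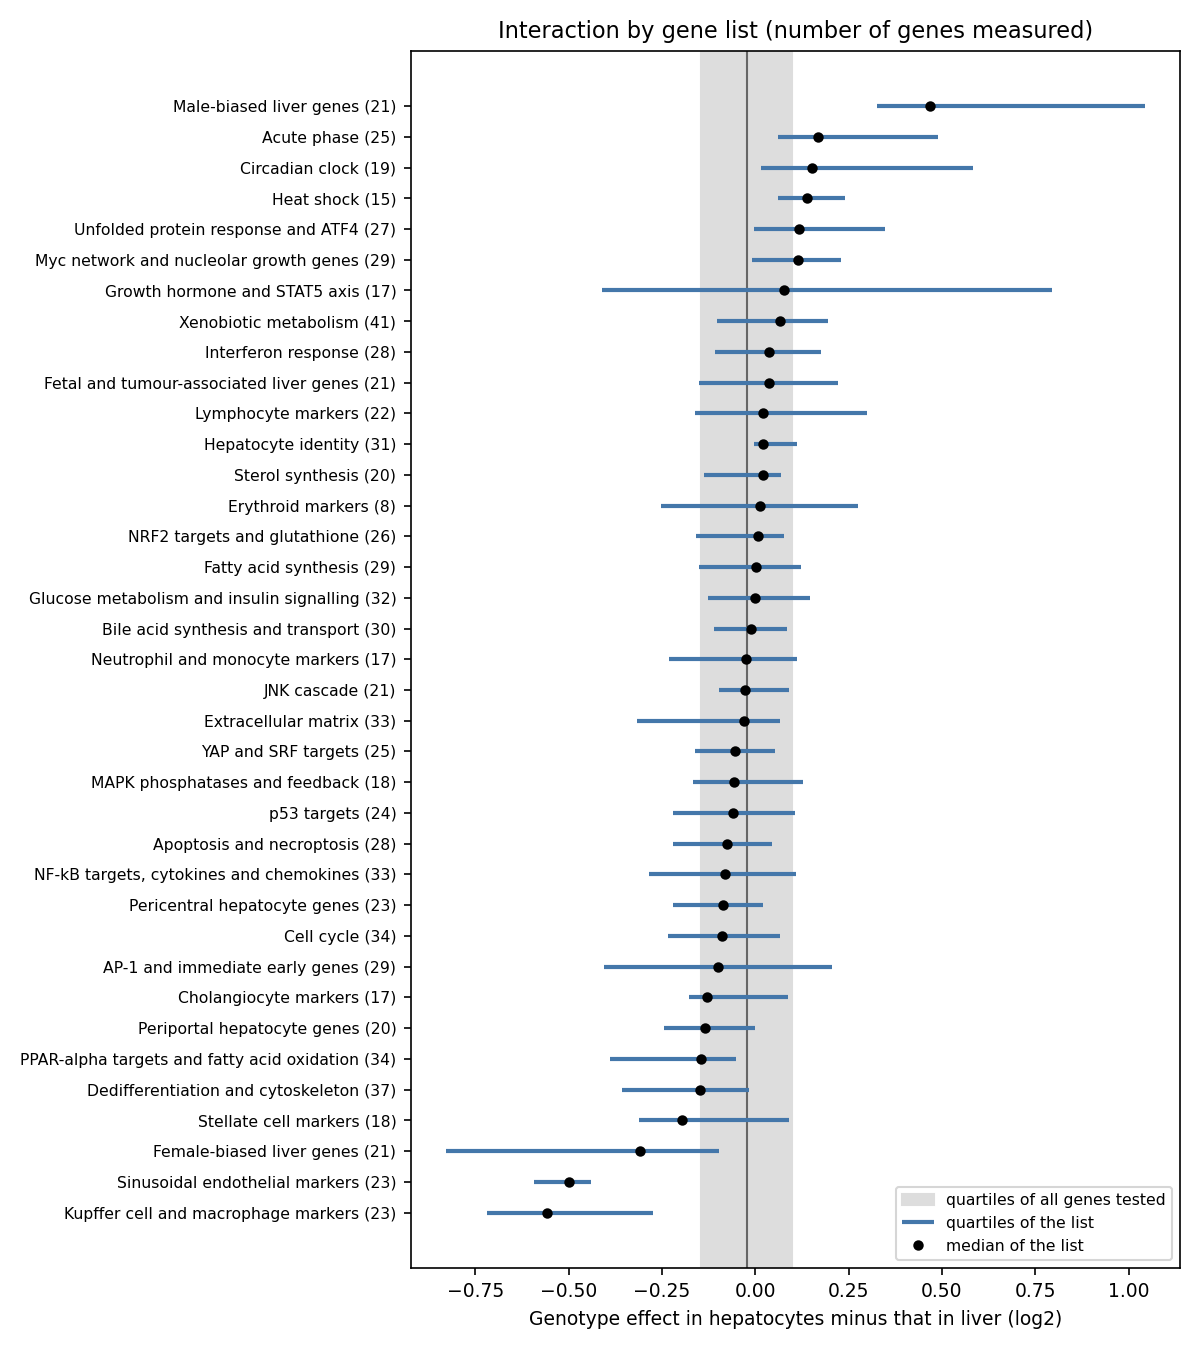
Median (point) and quartiles (bar) of the interaction (log2) in each of 37 gene lists, with the number of genes measured in brackets, over the quartiles (grey band) and median (grey line) of all 18820 genes. Male-biased liver genes lie highest at 0.47, and the Kupffer and sinusoidal endothelial markers lowest at −0.56 and −0.50.

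Among the 37 lists, the markers of Kupffer cells and of sinusoidal endothelium gave the lowest medians. Of 23 sinusoidal endothelial markers, 22 had an interaction below 0 (95.7% against 55.3% of all genes). An unadjusted p under 0.05 on that side was found in 16 (69.6% against 4.57%), with a list median of −0.50 and none past the threshold. The genotype effect behind it was 0.09 in liver and −0.45 in hepatocytes. The list mean was 7.90, 7.86 and 8.08 in WT liver and 8.07, 7.96 and 8.02 in JNKΔhepa liver, and 6.50, 6.20 and 6.47 in WT hepatocytes and 6.23, 5.82 and 5.80 in JNKΔhepa hepatocytes. The liver arrays overlapped. In hepatocytes JNKΔhepa replicates 2 and 3 lay below all WT arrays, and JNKΔhepa replicate 1 lay above WT replicate 2. The list mean changed relative to all genes by −0.82, −1.08 and −1.02 in WT mice and −1.25, −1.56 and −1.64 in JNKΔhepa mice. These responses did not overlap. In bulk samples, fewer cells of a type and less RNA per cell cannot be told apart. The count of 16 ranged from 9, without JNKΔhepa hepatocyte replicate 3, to 21, without JNKΔhepa hepatocyte replicate 1, and was also below 11 without JNKΔhepa hepatocyte replicate 2 or WT hepatocyte replicate 3 (10 each).

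Stab1, a scavenger receptor of sinusoidal endothelium, read 7.69, 7.66 and 7.82 in the WT livers, 7.90, 7.86 and 7.89 in the JNKΔhepa livers, 6.00, 5.98 and 6.12 in the WT hepatocytes and 5.82, 5.39 and 5.54 in the JNKΔhepa hepatocytes. Both tissues were without overlap, in opposite order, and the interaction was −0.61 (SE 0.147, limma adjusted p = 0.38). Lyve1, Cdh5, Pecam1 and Kdr, endothelial surface genes, had interactions of −0.75, −0.56, −0.59 and −0.55. Wnt2 was the only marker above 0, at 0.03.

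Kupffer cell and macrophage markers had 8 of 23 lower at the unadjusted threshold (34.8% against 4.57% of all genes). Their median was −0.56, with 20 of 23 below 0 (87.0% against 55.3% of all genes). Their mean was 7.19, 6.89 and 7.44 in WT liver and 7.21, 7.06 and 7.00 in JNKΔhepa liver, and 5.67, 5.11 and 5.59 in WT hepatocytes and 5.14, 4.83 and 4.71 in JNKΔhepa hepatocytes. Both tissues overlapped between the genotypes, in hepatocytes through JNKΔhepa replicate 1, which read above WT replicate 2. The list mean changed relative to all genes by −0.93, −1.20 and −1.27 in WT mice and −1.49, −1.64 and −1.70 in JNKΔhepa mice. These responses did not overlap. C1qb, a complement gene of macrophages, read 9.82, 9.43 and 9.91 in the WT livers, 9.72, 9.52 and 9.47 in the JNKΔhepa livers, 8.14, 7.52 and 7.88 in the WT hepatocytes and 7.05, 6.93 and 6.33 in the JNKΔhepa hepatocytes. Its hepatocyte groups did not overlap, it fell in JNKΔhepa hepatocytes by 1.08 (log2, limma adjusted p = 0.0225), and the interaction was −0.93 (SE 0.277, limma adjusted p = 0.474). The count of 8 fell to 3 without WT liver replicate 2, WT hepatocyte replicate 3 or JNKΔhepa hepatocyte replicate 3, and was 12 without WT liver replicate 3, WT hepatocyte replicate 2 or JNKΔhepa hepatocyte replicate 1. It was 4 or 5 without WT liver replicate 1, JNKΔhepa liver replicate 1 or 2, WT hepatocyte replicate 1 or JNKΔhepa hepatocyte replicate 2. Stellate cell markers had a median of −0.20, with 10 of 18 below 0 (55.6%), near the 55.3% of all genes. Neutrophil and monocyte markers had a median of −0.02 (0.01 after joint quantile normalisation and 0.02 after centring). All 17 of the latter were below the array median in every hepatocyte array.

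Hepatocyte identity genes had a median of 0.02, which was −0.0011 after joint quantile normalisation, with 1 of 31 higher at the unadjusted threshold, Onecut1. Interactions below 0 were 10 of 31 (32.3% against 55.3% of all genes), and 16 after joint quantile normalisation. The list mean overlapped between the genotypes in liver. It was 10.21, 10.31 and 10.29 in WT hepatocytes and 10.33, 10.38 and 10.41 in JNKΔhepa hepatocytes, without overlap. Relative to all genes it changed by 0.16, 0.23 and 0.25 in WT mice and 0.33, 0.33 and 0.43 in JNKΔhepa mice, also without overlap. The endothelial and Kupffer list means were lower in JNKΔhepa hepatocyte replicates 2 and 3 than in all WT hepatocyte arrays, with replicate 1 inside the WT range, and the part of this RNA in the interaction of other genes was not tested. Hhex and Ccn1, which are below 0 in the interaction, are also expressed in liver endothelium. Relative to all genes, Hhex responded by 0.37 under WT but by −1.41 under JNKΔhepa. Ccn1 responded by 1.21 under WT but by −0.35 under JNKΔhepa. Endothelial markers had a median response of −1.01 under WT, against −1.49 under JNKΔhepa. Whether endothelial RNA had a part in the interaction of Hhex or Ccn1 was not tested. Plet1, which passed, had responses of −2.31 in WT and −4.12 in JNKΔhepa, with most of its hepatocyte readings below the array median. The median responses were −1.26 and −1.75 for the Kupffer markers and −1.65 and −2.03 for the stellate markers. Whether a change of cell composition had a part in the interaction of Plet1 was not tested.

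**Figure D4:**
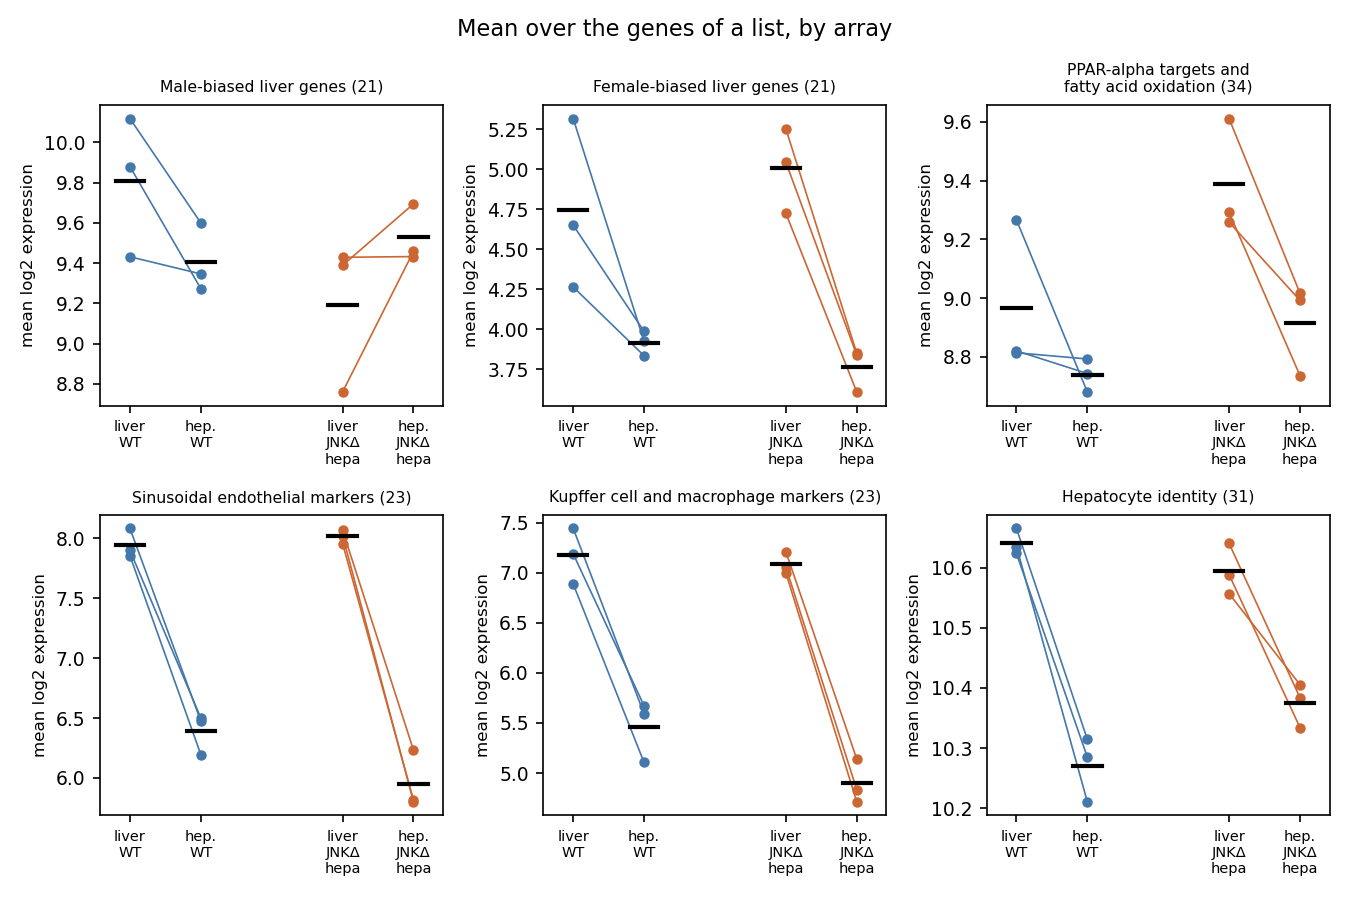
Mean log2 expression over 6 gene lists by array, WT in blue and JNKΔhepa in orange, with lines joining the arrays of a mouse and black bars giving group means of 3. The endothelial and Kupffer means drop from liver to hepatocytes in every mouse by more than the general shift of −0.58, and in hepatocytes 2 of the 3 JNKΔhepa arrays lie below all WT arrays. Relative to that shift the male-biased means respond by −0.02 to 0.50 in WT and by 0.59 to 1.28 in JNKΔhepa.

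Among metabolic and secreted liver functions, the genes of fatty acid oxidation and PPAR-alpha, the fasting-activated nuclear receptor, had 29 of 34 interactions below 0 (85.3% against 55.3% of all genes), with 5 lower at the unadjusted threshold (14.7% against 4.57%), none past the threshold and a median of −0.14. The median genotype effect was 0.36 in liver and 0.16 in hepatocytes. Without 1 array in turn the 29 ran from 21, without WT liver replicate 2, to 31. It was 22 without JNKΔhepa hepatocyte replicate 1 and 24 without JNKΔhepa liver replicate 3. List means were 8.82, 8.81 and 9.27 in WT liver, 9.29, 9.26 and 9.61 in JNKΔhepa liver, 8.74, 8.79 and 8.68 in WT hepatocytes and 8.74, 8.99 and 9.02 in JNKΔhepa hepatocytes. Relative to all genes they changed by 0.51, 0.56 and −0.0016 in WT mice and 0.03, 0.32 and −0.01 in JNKΔhepa mice, so the genotypes overlapped. Plin2, a lipid droplet coat protein, read 10.40, 10.61 and 10.56 in the WT livers, 11.14, 10.95 and 11.19 in the JNKΔhepa livers, 10.92, 10.70 and 10.78 in the WT hepatocytes and 10.83, 10.78 and 10.91 in the JNKΔhepa hepatocytes. It rose in JNKΔhepa liver by 0.57 (log2, limma adjusted p = 0.0129), differed by 0.04 in hepatocytes and had an interaction of −0.53 (SE 0.135, adjusted p = 0.398). The others of the 5 were Acot2 (−0.91), Angptl4 (−0.86), Ehhadh (−0.43) and Cyp4a14 (−0.98). The count of 5 became 11 without WT liver replicate 3, 3 without WT liver replicate 1 or WT hepatocyte replicate 1 or 2, and 2 without WT liver replicate 2, JNKΔhepa liver replicate 3 or JNKΔhepa hepatocyte replicate 1. Ppargc1a, a coactivator of fasting metabolism, fell by 1.01 in JNKΔhepa hepatocytes (limma adjusted p = 0.00919) and had an interaction of −1.02 (SE 0.222, adjusted p = 0.358).

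Acute phase genes, the secreted proteins of the hepatic inflammatory response, had 20 of 25 interactions above 0, against 44.7% of all genes, with 5 higher at the unadjusted threshold, against 2.65% of all genes, and a median of 0.17. Without JNKΔhepa liver replicate 3 the median was 0.04, with 16 of 25 above 0. Orm2, an orosomucoid gene, read 8.84, 8.21 and 8.99 in the WT livers, 8.28, 8.11 and 6.95 in the JNKΔhepa livers, 6.53, 6.28 and 6.24 in the WT hepatocytes and 6.80, 7.09 and 7.08 in the JNKΔhepa hepatocytes, so that its hepatocyte groups were apart and its interaction was 1.54 (SE 0.405, limma adjusted p = 0.4). The others were Socs3, Steap4 (0.78), Saa4 (0.49) and Saa3 (1.26). The count of 5 became 2 without WT hepatocyte replicate 1 and 3 without WT liver replicate 3, JNKΔhepa liver replicate 3, WT hepatocyte replicate 3 or JNKΔhepa hepatocyte replicate 2. The bile acid transporter Slco1a4 had the smallest p of the bile acid list, rose in JNKΔhepa liver by 0.78 (limma adjusted p = 0.0339) and had an interaction of −0.99 (SE 0.221, adjusted p = 0.358). Medians of the bile acid, fatty acid synthesis, glucose and NRF2 lists lay within 0.02 of 0 and changed sign with the scaling.

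Genes whose genotype effect passed in 1 tissue or in both were set beside each other. The effect passed in 174 genes in liver (0.925%) and in 158 in hepatocytes (0.84%), with 55 in both, 31.6% of the first list and 34.8% of the second. These lists rest on separate arrays of the same mice. Of the 55, 54 had the same direction in both tissues, Plet1 being the exception, and the 95% interval of the difference held 0 in 48. The median absolute difference between the tissues was 0.109 (log2). The 55 include the deleted genes Mapk8 and Mapk9. They were selected for passing in both tissues, so the small differences and the intervals that held 0 come in part with that selection. Passing in 1 tissue and not in the other is no evidence of a difference: of the 174 liver genes 80 had an interaction p under 0.05 before adjustment, and of the 158 hepatocyte genes 70, but these genes were selected on a part of the same contrast. Across all genes the liver and hepatocyte effects correlated at r = 0.402 (Spearman's rho 0.272), a description over genes that share mice and are not independent.

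**Figure D5:**
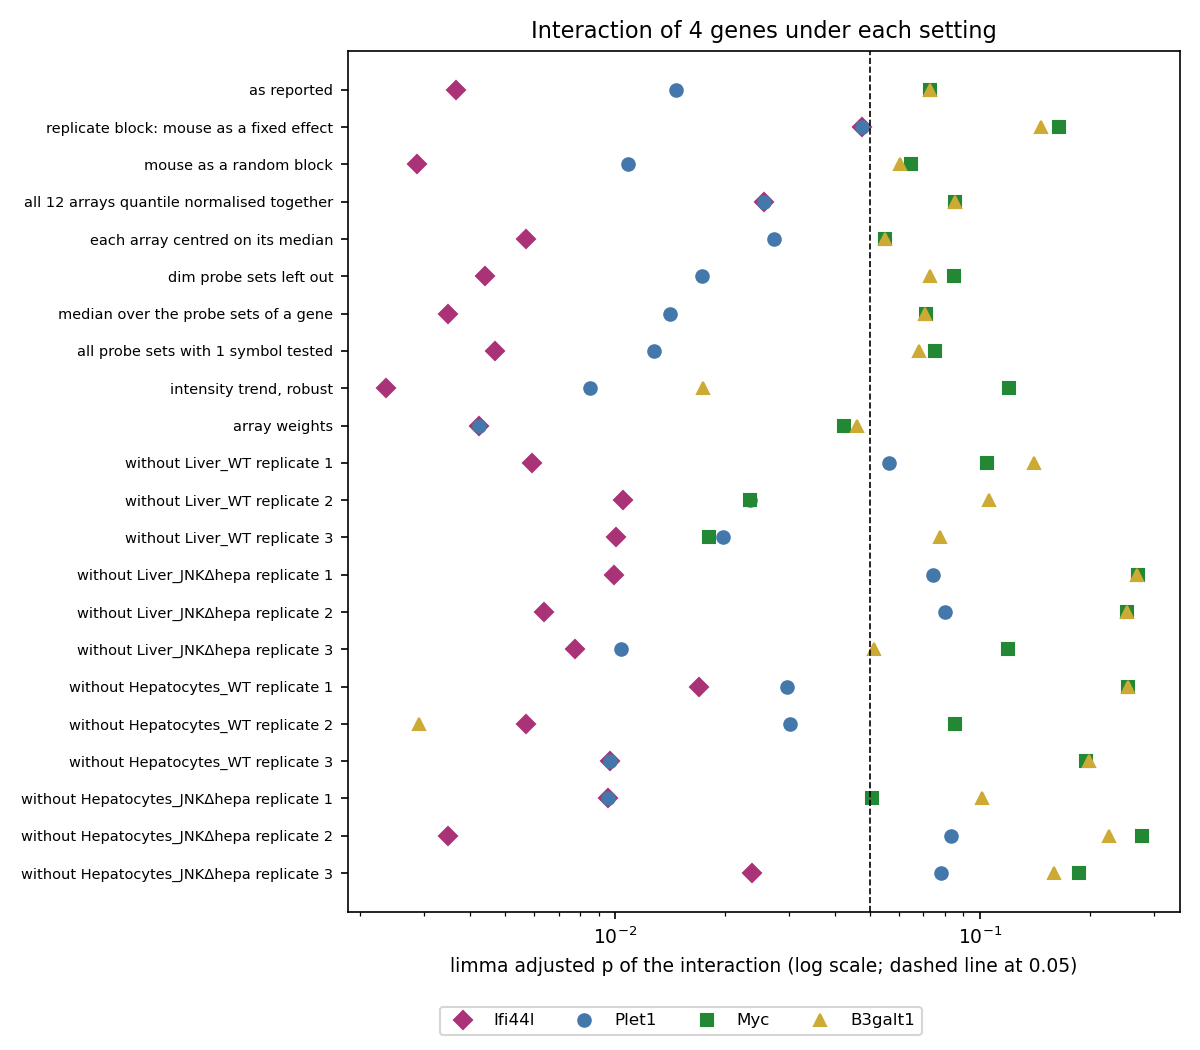
Adjusted p of the interaction (horizontal, log scale) for Ifi44l, Plet1, Myc and B3galt1 under each setting (rows), with a dashed line at 0.05. Ifi44l lies left of the line in every row, and Plet1 crosses it in 5 of the 12 rows that leave out an array.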

How the data were processed

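RNA from 12 samples was measured on 1-colour whole-transcript arrays. The deposited values are log2 values that the authors made with RMA (robust multi-array average), per the submitters' processing notes, which name no version or settings. The array quantiles differ between the tissues, which therefore appear to have been normalised separately. Of 35556 probe sets, 21218 had 1 gene symbol in the platform annotation, 1881 had several and 12457 none. The probe set with the highest mean stood for each of 18820 genes (1386 had several), and RefSeq (GRCm38.p6) held 18790 of them and updated 0 symbols. 0 columns were without a sample.

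The 4 group means were fitted jointly in limma 3.58.1 under R 4.3.3, with statmod 1.5.0 for the random block (8 residual and 4.76 prior degrees of freedom). No dim probe set was removed, tests were two-sided, and the threshold was a p of 0.05 after Benjamini-Hochberg adjustment over all genes. A reading below its array's median over all probe sets is called dim, and changes resting on dim groups are lower bounds or not exact. The fit was tested on simulated data. The labels give the same animal numbers to liver and hepatocyte samples, which pairs them. The deviations of a mouse's arrays from their group means correlated at −0.01 to 0.10.

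Named were the genes that passed, the next by p up to 10 in each direction, Mapk8, Mapk9, Jun and Myc, and from each of 37 lists the members that passed (at most 2) or the member with the smallest p. Predicted genes, RIKEN clones and small RNAs were not named. Other members named were chosen after their values were seen. The members, lists and rules were chosen with earlier results of these data known. Lists are described by counts and medians, with no test. Figures were drawn with matplotlib 3.10.9.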

Additional observations from a re-analysis of the deposited data

Results flagged for a closer look

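The genotype effect of Ifi44l differed between the tissues by the test of the difference itself (interaction −1.77, limma adjusted p = 0.00365, lower in all 3 JNKΔhepa responses than in all 3 WT responses). That of Plet1 did as well, with opposite directions in liver and hepatocytes (interaction −1.82, limma adjusted p = 0.0147, again lower in 3 of 3 JNKΔhepa mice). No groups were large enough to look for single outlying arrays.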

How the results depend on the processing

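The same 2 genes, Ifi44l and Plet1, passed with the mouse as a replicate block (2 genes, both at adjusted p = 0.0474), with the mouse as a random block, with all arrays quantile normalised together, with each array centred, with dim probe sets left out and with the median over probe sets. The block changed no other call. All probe sets tested gave 3 calls and an intensity trend gave 3 (1 higher in each), and array weights gave 4 (2 higher). Without 1 array in turn the total ranged from 1 to 7, the higher calls from 0 to 3 and the lower from 1 to 4. The total was 1 without JNKΔhepa liver replicate 1 or 2 or JNKΔhepa hepatocyte replicate 2 or 3, 4 without WT liver replicate 2, JNKΔhepa liver replicate 3 or WT hepatocyte replicate 2, and 7 without WT liver replicate 3. The cause was not tested. Over the 53 named genes, 1094 of 1110 comparisons with another setting kept direction and side of the threshold, 10 gained a call, 5 lost one, all in Plet1, and 1 turned: Jun, at −0.10, ranged from −0.25 to 0.0028 without 1 array in turn and was above 0 without WT hepatocyte replicate 3. With 3 arrays a group, and probe sets near the dim end such as those of Ifi44l, small interactions were not detectable here.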

Other observations

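In the lists described here no interaction passed the adjusted threshold. Over all genes, 44.7% of interactions were above 0, and 2.65% were higher and 4.57% lower at an unadjusted p under 0.05, the threshold of the counts that follow. Circadian clock genes had 14 of 19 interactions above 0 (73.7%), with a median of 0.15 and 2 higher (10.5%). Their median ran from 0.06, without WT hepatocyte replicate 1, to 0.43, without WT liver replicate 2. The count of 2 was 5 without WT liver replicate 2, 4 without WT hepatocyte replicate 2, 2 without WT liver replicate 1 or JNKΔhepa liver replicate 2, and 0 or 1 without any other array. Heat shock genes had 13 of 15 above 0 (86.7%), with a median of 0.14 and 2 higher (13.3%). That count was 0 without WT liver replicate 2 or 3 or JNKΔhepa liver replicate 1, 2 without WT liver replicate 1, WT hepatocyte replicate 3 or JNKΔhepa hepatocyte replicate 2, and 1 without any other array, and the median was 0.06 without JNKΔhepa hepatocyte replicate 1. Genes of the unfolded protein response had 19 of 27 above 0 (70.4%), with a median of 0.12 and 3 higher (11.1%), among them Xbp1 (0.61), its central transcription factor. Without JNKΔhepa hepatocyte replicate 1 the median was 0.00036, with 14 of 27 above 0, and without WT liver replicate 3 the count was 5.

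Per2, a clock repressor, had the smallest p of the clock list (interaction 1.11, 95% interval 0.11 to 2.10), with WT liver replicate 3 at 7.25 against 5.88 and 5.76 in the other WT livers. Cytoskeletal and dedifferentiation genes lay below 0 in 30 of 37, with a median of −0.15 and 5 lower (13.5%), led by Msn (−0.87), which encodes a membrane-cytoskeleton linker also abundant in endothelial and blood cells. The count of 5 was 3 after either other scaling and without JNKΔhepa liver replicate 1, WT hepatocyte replicate 1 or JNKΔhepa hepatocyte replicate 2 or 3.

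Krt23, a keratin listed as a cholangiocyte marker, rose in JNKΔhepa liver by 0.75 (limma adjusted p = 0.0102), differed by 0.00 in hepatocytes and had an interaction of −0.75 (SE 0.172, adjusted p = 0.36). Its 6 liver readings were all below the array median. Periportal hepatocyte genes had 15 of 20 interactions below 0 (75.0% against 55.3% of all genes) with a median of −0.13, and pericentral genes 16 of 23 (69.6%) with a median of −0.09. Without 1 array in turn those medians ran from −0.21 to −0.05 and from −0.13 to −0.02. Cell cycle genes had 4 lower and 1 higher of 34 (11.8% and 2.94%), with a median of −0.09. Without WT hepatocyte replicate 2 they had 1 lower and 2 higher and the median turned to 0.10. The count of 4 was 6 without WT hepatocyte replicate 1, and 2 after either other scaling and without WT liver replicate 1 or 2 or JNKΔhepa hepatocyte replicate 2. The count of 1 was 2 or 0 without 7 of the 12 arrays.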
